A study of Homo sapiens with 16 samples.

Results

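The 117 genes described here were silent in every control culture of 4 bladder cancer (BC) cell lines and carried reads in all 4 lines upon treatment with CM-1758, a histone deacetylase (HDAC) inhibitor. A gene was counted as silent when each of the 8 control libraries held at most 3 raw counts, and as on in a treated line when the 2 libraries of that line held at least 10 counts together. These limits were applied to 35993 gene symbols. Of the 120 genes that met them, GRM4, HTR3A and PAGE4 belong to receptor and cancer-testis families that the choice left aside, which gave the 117. Since the control and treated counts chose the genes, their response to CM-1758 is given as a description with no test. The treated lines are compared with a test, for which the choice did not fix the order of the lines, but it bounded the lowest level by requiring 10 counts in each line and left out genes that were off in any line.

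RNA-seq was done on the established human BC lines TCCSUP, RT112, J82 and 253J, with a genotype labelled WT, each given CM-1758 at its own IC50 (the inhibitory concentration determined for that line) or, per the labels, the vehicle DMSO for 48 h. The study's text calls the same control cells untreated. Each of the 8 groups held 2 libraries, 16 in all, made from total RNA. TCCSUP was grown in EMEM and the other lines in DMEM, so the dose cannot be told apart from the line in any comparison between lines, nor the medium in those with TCCSUP. Total counts ran from 27655401 to 32537104 in the control libraries and from 22506431 to 31547585 in the treated ones, and J82 had the deepest treated libraries. Of 19 urothelial markers, 18 exceeded 1 CPM (counts scaled to library size) in control RT112, 11 in TCCSUP, and 8 each in 253J and J82, where KRT5, KRT13, KRT20 and the uroplakins UPK1A, UPK1B, UPK2 and UPK3A were all below 0.1 CPM.

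HDACs remove acetyl groups from the lysines of histone tails, which tightens chromatin and holds many tissue-restricted genes in a repressed state. An HDAC inhibitor leaves the acetyl groups in place, and transcription from such genes can then be detected in cells that do not normally use them. CpG-rich promoters tend to be unmethylated, whereas CpG-poor promoters are common among genes used in only a few tissues.

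The promoters of 6 of the 117 genes are shown because they stand for the kinds of gene found in the set, namely the glycoprotein hormone subunit CGA, the stomach hormone GAST, the microRNA host gene MIR7-3HG, the secreted protein AZGP1, the egg protein NLRP5 and the neuronal transporter SLC17A7. Each window runs from 250 bases before to 50 bases after the RefSeq start of the gene, is written 5′ to 3′ along the gene, and has in capitals the motifs searched for on either strand, which were TATAAA (the TATA box), GGGCGG (a GC box), CCAAT (the CCAAT box), CACGTG (an E-box) and TGACGTCA (the cAMP response element). The windows are from GRCh38.p14, a later build than the one of the count table. They lie at chr6:87095057-87095356 on the minus strand for CGA, chr17:41712081-41712380 on the plus strand for GAST, chr19:4768855-4769154 on the plus strand for MIR7-3HG, chr7:99975982-99976281 on the minus strand for AZGP1, chr19:55986525-55986824 on the plus strand for NLRP5 and chr19:49441478-49441777 on the minus strand for SLC17A7.
CGA promoter: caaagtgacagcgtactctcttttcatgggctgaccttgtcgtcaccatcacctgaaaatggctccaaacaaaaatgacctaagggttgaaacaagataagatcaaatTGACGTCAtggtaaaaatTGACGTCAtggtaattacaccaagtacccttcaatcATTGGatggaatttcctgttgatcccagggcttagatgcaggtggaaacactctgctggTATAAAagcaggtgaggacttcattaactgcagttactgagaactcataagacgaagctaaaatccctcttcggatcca
GAST promoter: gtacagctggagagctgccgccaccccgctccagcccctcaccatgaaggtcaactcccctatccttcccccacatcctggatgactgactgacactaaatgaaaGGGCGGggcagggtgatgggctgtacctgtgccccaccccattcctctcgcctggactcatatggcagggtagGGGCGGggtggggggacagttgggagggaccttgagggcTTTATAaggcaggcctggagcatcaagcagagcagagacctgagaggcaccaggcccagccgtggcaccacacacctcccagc
MIR7-3HG promoter: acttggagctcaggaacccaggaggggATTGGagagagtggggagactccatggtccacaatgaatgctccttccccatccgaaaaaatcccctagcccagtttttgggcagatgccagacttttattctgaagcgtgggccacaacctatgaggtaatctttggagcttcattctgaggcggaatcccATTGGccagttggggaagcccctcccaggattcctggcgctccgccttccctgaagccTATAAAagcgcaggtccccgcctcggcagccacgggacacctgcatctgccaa
AZGP1 promoter: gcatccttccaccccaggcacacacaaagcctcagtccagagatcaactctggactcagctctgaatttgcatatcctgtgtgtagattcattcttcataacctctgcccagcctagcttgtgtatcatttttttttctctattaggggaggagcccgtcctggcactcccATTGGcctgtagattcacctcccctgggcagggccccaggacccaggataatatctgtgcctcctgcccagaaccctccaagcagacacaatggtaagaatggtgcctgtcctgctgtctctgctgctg
NLRP5 promoter: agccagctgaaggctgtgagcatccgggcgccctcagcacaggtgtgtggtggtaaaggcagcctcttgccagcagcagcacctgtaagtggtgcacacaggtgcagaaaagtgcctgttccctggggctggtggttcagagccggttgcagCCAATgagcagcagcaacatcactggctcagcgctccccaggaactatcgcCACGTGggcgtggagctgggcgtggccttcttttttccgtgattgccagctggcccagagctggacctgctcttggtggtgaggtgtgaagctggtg
SLC17A7 promoter: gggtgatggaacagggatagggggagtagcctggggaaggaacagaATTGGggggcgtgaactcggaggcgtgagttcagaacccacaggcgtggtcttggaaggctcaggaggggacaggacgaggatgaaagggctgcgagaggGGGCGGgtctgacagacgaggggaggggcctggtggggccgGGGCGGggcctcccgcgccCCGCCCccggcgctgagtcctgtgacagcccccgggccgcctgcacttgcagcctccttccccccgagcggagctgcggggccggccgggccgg

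Upon CM-1758 treatment, the 117 genes together held 53508 counts over the 8 treated libraries, against 275 counts over the 8 control libraries. Single control libraries held 27 to 46 of these counts, spread over 12 to 22 of the genes. Among treated libraries, J82 held the fewest, 2018 and 3146, followed by RT112 with 5717 and 5934, 253J with 7686 and 10273, and TCCSUP with 10204 and 8530. Every treated library held counts on at least 113 of the 117 genes. More cells with a transcript and more of it per cell cannot be told apart in such bulk samples. In control, 54 genes had no count in any library, and the highest control sum over 8 libraries was 13, for EGR3, an immediate early transcription factor. The lowest treated library was above the highest control library in 97 of the 117 genes and overlapped with it in 20, a separation that the choice of genes largely fixed and that 1.78% of all 35993 genes showed.

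**Figure D1:**
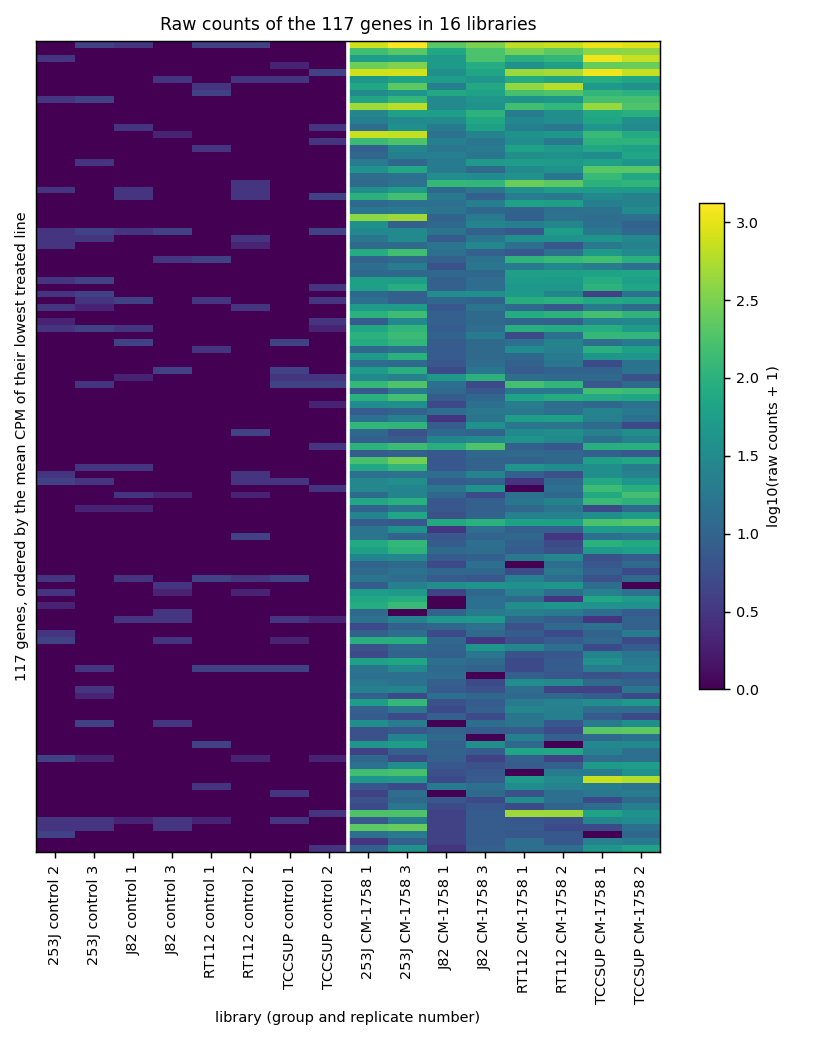
Raw counts of the 117 genes (rows) in the 16 libraries (columns), as log10(raw counts + 1), with control libraries left of the white line and CM-1758 libraries right of it. Rows are ordered by the mean CPM of the lowest treated line. Control libraries stay at or under 3 counts by the choice of genes, and the J82 treated columns are the darkest of the treated ones.

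The signal was small for most of these genes. In 82 of the 117 the lowest treated line held only 10 to 19 counts over its 2 libraries, 12 genes reached 50 counts in every line and 4 reached 100. As RPKM, that is CPM per kilobase of exon, for the 101 genes with a known length, the median treated level was 0.444 in TCCSUP, 0.305 in 253J, 0.281 in RT112 and 0.154 in J82. The median of all tested genes was 2.25 to 2.53 RPKM in the same groups, and only 14, 2, 9 and 13 of the 101 genes lay above it in 253J, J82, RT112 and TCCSUP. A few genes held much of the signal, since AZGP1 alone took 11.3% of the treated counts of the set, 5 genes took 31.6% and 10 genes took 45.5%. In 13 genes 1 treated library was at 0, and 1 library of the line then carried its count. For some genes the treated counts of a line lay close to its control counts. RPL3L held 6 and 11 counts in treated TCCSUP against 3 and 3 in control. LINC01376 held 4 and 7 in treated RT112 against 3 and 3, and C8orf34 held 2 and 9 in treated TCCSUP against 2 and 1. Counts of 2 were more frequent than counts of 1 in the table, 18814 against 13099 values, and whether the reads of a pair were counted singly is not given in the sources used here.

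The set is the far end of a wider group. Of the 13319 genes silent in all 8 control libraries, 11300 were on in no treated line, 1237 in 1 line, 434 in 2, 228 in 3 and 120 in all 4. TCCSUP had the most such silent genes on, 1298, of which 9.24% were on in all 4 lines, while 253J had 860, RT112 689 and J82 422, of which 28.4% were on in all 4. J82 was also the line whose absence most often kept a gene out, with 106 genes on in the other 3 lines only, against 68 for 253J, 39 for RT112 and 15 for TCCSUP. With control and treated libraries exchanged the same limits gave 0 genes. With the limit for a treated line kept, leaving out a treated library can only lower the number of genes. Such a fall therefore does not show that membership rested on that library. The rule gave 55 genes without J82 CM-1758 replicate 3 and 77 without replicate 1. It gave 83 to 101 genes without 1 treated library of another line.

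**Figure D2:**
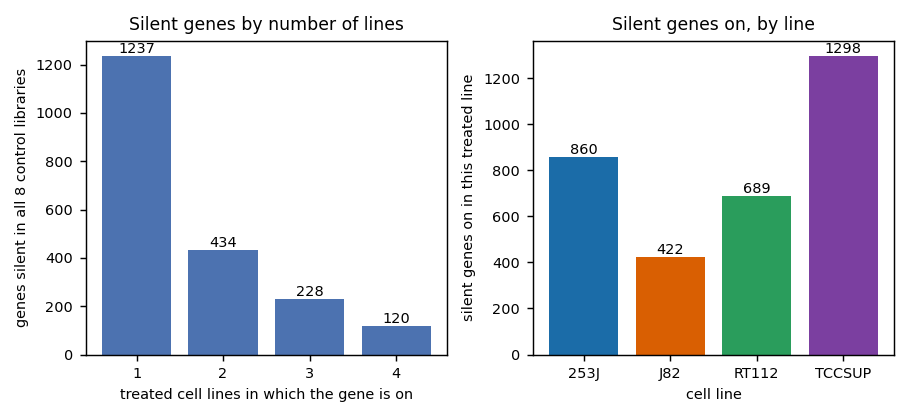
Left, the number of genes silent in all 8 control libraries (y axis) that were on in 1, 2, 3 or 4 treated lines (x axis). Right, the number of these silent genes on in each treated line, from 422 in J82 to 1298 in TCCSUP.

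Genes close to the limits show how the set was bounded. Just inside, ATP4A held 10 counts in treated J82 and 13 in RT112, and CD79B and GFI1B also held 10 in J82. Just outside, CALN1 held 1965 counts in treated 253J and 352 in TCCSUP but only 9 in J82, and CEACAM21 held 156 in 253J and 9 in J82. ABHD1 had 9 counts in both 253J and J82. On the control side, ACSBG2, B4GALNT2 and C11orf86 were left out for a control library with 4 counts, although B4GALNT2 held 447 counts in treated J82. In all, 20 genes missed the treated limit by 1 count and 34 genes missed the control limit by 1 count.

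RefSeq lists 74 of the 117 genes as protein coding, 24 as long noncoding RNA (lncRNA) and 13 as pseudogenes, and 6 symbols were not matched. Protein-coding genes were thus 63.2% of the set, against 22.3% of all genes silent in control. Genes listed as pseudogene, without the label transcribed, were 6.84% of the set against 33.4% of the silent genes. Genes of the set were matched by symbol or synonym and the silent genes by symbol alone, so the shares are not fully alike. In the following, the protein-coding genes, and with the germ cell genes the transcribed pseudogene NXF4, are ordered by what they are known to do, a grouping made from general knowledge after their values were seen.

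Genes of the synapse and of neurosecretion formed a group of 10. SLC17A7 encodes VGLUT1, which loads glutamate into synaptic vesicles, and its CpG-rich promoter with 23 CpG sites in 300 bases is shown above. SLC17A7 had no control count except for 2 in an RT112 library, and held 11 and 14 counts in treated 253J, 119 and 116 in J82, 265 and 218 in RT112 and 102 and 111 in TCCSUP. The 253J libraries were far below the other 6, and RT112 was 4.35 ± 0.41 (log2 difference ± SE) above 253J, adjusted p = 2.3e-06 by the quasi-likelihood test of edgeR. STMN2, a regulator of microtubules in growing axons, had the opposite low line, with 105 and 139 counts in treated 253J, 89 and 184 in J82, 92 and 94 in TCCSUP and only 8 and 6 in RT112. NPTX2, a secreted pentraxin that gathers glutamate receptors, held 467 and 468 counts in treated RT112, 175 and 178 in 253J, 63 and 39 in TCCSUP and 3 and 7 in J82. The RT112 and J82 levels of NPTX2 differed by 6.66 ± 0.48 (log2), adjusted p = 2.39e-07. SYT5, a calcium sensor of vesicle release, held 87 and 98 counts in RT112 and 76 and 69 in TCCSUP, against 8 to 13 per library in 253J and J82.

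SV2B and SV2C are vesicle glycoproteins of neurons and endocrine cells, and their orders over the lines differed. SV2B was highest in 253J, with 86 and 128 counts, and in J82 it rested on 1 library, with 0 and 13. SV2C was highest in RT112, with 30 and 34 counts, and held 5 to 10 per library in 253J and J82. SV2C overlaps 2 genes, RAP1BL and HMGN2P4, that exceeded 20 CPM in a control line, so its counts are less certain. The group also held the neutral amino acid transporter SLC7A10, CALY, and the CDK5 activator CDK5R2. SLC7A10 held 94 and 59 counts in TCCSUP and 7 to 32 in the other libraries, and it overlaps LRP3 on the opposite strand, which reached 47.7 CPM in a control line. In all, 6 of the 10 genes were called between treated lines by an F test over the 4 treated groups, which called 73.1% of all genes tested, with a median difference between the highest and lowest line of 3.31 (log2).

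Hormones, growth factors and their receptors made up 9 genes. CGA encodes the alpha subunit shared by the pituitary and placental glycoprotein hormones. Its promoter above holds TGACGTCA, the site known to bind CREB proteins, at positions -142 and -124 from the start, and TATAAA at -29. No control library held a CGA count, and treated libraries held 27 and 60 in 253J, 54 and 103 in J82, 19 and 34 in RT112 and 79 and 92 in TCCSUP. All 4 lines were thus within a small range, 1.68 ± 0.50 (log2) between TCCSUP and RT112, which was not called over the 4 lines (adjusted p = 0.031). Against a floor of 3 counts in each control library, the mean CGA level was 10.2-fold higher in treated RT112 and 28.2-fold higher in TCCSUP.

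GAST encodes gastrin, the stomach hormone that drives acid secretion. GAST also had no control count, but 67 and 73 counts in treated RT112 stood against 3 and 8 in 253J, 9 and 7 in J82 and 23 and 13 in TCCSUP. RT112 was 3.74 ± 0.63 (log2) above 253J, adjusted p = 0.000388. FGF9, a secreted growth factor, held 153 and 152 counts in TCCSUP, 66 and 115 in 253J, 30 and 41 in J82 and 39 and 44 in RT112, with 2 and 3 counts in the 253J controls.

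TAC3, the precursor of neurokinin B, and the receptors MC5R (melanocortin) and GPR50 (related to melatonin receptors) were highest in 253J, with 61 and 68, 51 and 91, and 55 and 121 counts. In J82 the same 3 genes held 13 and 11, 4 and 16, and 5 and 7 counts. AVPR1A, the vasopressin V1a receptor, was even across the lines at 12 to 58 counts per library, with a difference of 0.90 ± 0.70 (log2) between the highest and lowest line. The receptor tyrosine kinases EPHA8 and FLT3 were not called between lines. FLT3 in TCCSUP rested on 1 library, with 12 and 0 counts.

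Of the 8 ion channels, pumps and other transporters, 5 had no control count in any library and 1 was called between treated lines, against 73.1% of all genes tested. That gene was KCNK13, a tandem-pore potassium channel, with 71 and 61 counts in TCCSUP, 62 and 48 in RT112, 8 and 26 in 253J and 16 and 18 in J82. The taste channel TRPM5, the gastric proton pump subunit ATP4A, the sodium pump regulator FXYD1, the ammonium transporter RHAG of red cells, the sodium/calcium exchanger SLC24A4 and the connexin GJC3 held 0 to 49 counts per treated library. GJC3 lies next to AZGP1, the only adjacent pair in the set, and held 9 to 16 counts per library in 253J and TCCSUP and 2 to 10 in J82 and RT112.

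Blood and immune cell genes made up 8 members, and TCCSUP was the highest line for 5 of them. PRF1 encodes perforin, the pore-forming protein of killer lymphocytes. PRF1 had no control count, and held 210 and 222 counts in treated TCCSUP against 4 to 9 in each of the other 6 treated libraries. The TCCSUP and 253J levels of PRF1 differed by 5.34 ± 0.49 (log2), adjusted p = 4.71e-06 by the edgeR test. Outside TCCSUP its mean treated level was 1.79-fold the control floor in 253J, 2.51-fold in J82 and 2.14-fold in RT112. The counting error of these few treated counts is not covered.

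NCKAP1L, the blood cell subunit of the WAVE actin complex, was also highest in TCCSUP and had no control count. It held 207 counts in both treated TCCSUP libraries, 37 and 71 in 253J, 30 and 39 in RT112 and 19 and 11 in J82. CD79B, a part of the B cell receptor, held 43 and 62 counts in TCCSUP and 2 and 8 in J82, and GFI1B, a repressor of erythroid and platelet precursors, held 26 and 32 in TCCSUP and 3 and 7 in J82. CLEC4M, a lectin of liver sinusoids and lymph nodes, was highest in 253J with 135 and 184 counts. LILRA5 and CLEC12B, receptors of myeloid cells, held 6 to 28 counts per treated library and were not called between lines. STAB1, a scavenger receptor of sinusoidal endothelium, gave 4 to 16 counts in every treated library, with 0.56 ± 0.82 (log2) between the highest and lowest line, a value that ran from 0.0028 to 1.09 when 1 library was left out. STAB1 overlaps NT5DC2 on the opposite strand, which reached 29.6 CPM in a control line. PTPRC, the general leukocyte marker, was not in the set.

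Genes known from germ cells, testis and cilia were the largest of these groups, with 15 members, of which 10 had no control count. NLRP5, also called MATER, is a maternal factor of the egg needed for early cleavage. All 8 control libraries were at 0 for NLRP5, and treated libraries held 147 and 212 counts in 253J, 72 and 170 in J82, 316 and 217 in RT112 and 366 and 398 in TCCSUP. The mean levels stood 37.4-fold above the floor in J82 and 126-fold in TCCSUP. TCCSUP exceeded J82 by 1.81 ± 0.38 (log2), adjusted p = 0.00204 by the edgeR test.

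NXF4, which RefSeq lists as a transcribed pseudogene of the mRNA export factor family, held 164 and 289 counts in treated 253J and 61 and 74 in TCCSUP, against 6 to 10 per library in J82 and RT112. The same pair of lines was high for SEPTIN14, with 80 and 117 counts in 253J and 97 and 79 in TCCSUP against 4 to 13 elsewhere, for TEX37, with 71 and 96 and 131 and 101 counts against 6 to 24, and for DYDC2. In contrast, RFPL4B held 106 and 127 counts in RT112 and 148 and 95 in TCCSUP against 8 to 14 in 253J and J82, and CCDC63, a dynein docking protein of sperm flagella, held 59 and 58 in RT112 and 64 and 67 in TCCSUP against 10 in each library of the other 2 lines. MORN5 held 116 and 111 counts in 253J, and 4 to 38 in the remaining libraries. TDRD10, a Tudor domain protein, and CFAP52, a protein of the ciliary axoneme, were low and not called, at 5 to 28 and 6 to 27 counts per library, as were LYZL4, CAPN11, TEX48 and BHMG1. GMNC, a regulator of multiciliated cells, held 71 and 114 counts in 253J and 6 and 9 in J82. CFAP52 overlaps USP43 on the same strand, which reached 15.9 CPM in a control line.

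Enzymes and secreted proteins of other tissues made up 7 members, all of them called between treated lines by the F test given below, which called 73.1% of all genes tested. AZGP1, zinc-alpha-2-glycoprotein, is a secreted lipid-mobilizing protein of liver, fat and glands. In control it held 0 to 3 counts per library, and upon treatment 792 and 1328 in 253J, 206 and 316 in J82, 657 and 720 in RT112 and 1074 and 971 in TCCSUP. AZGP1 was the member with the highest level per length in its lowest line, at 3.35 RPKM in J82, followed by LINC02446 at 2.44 RPKM in 253J. Its promoter above holds 1 CpG site in 300 bases. In TCCSUP, where both controls were at 0, the mean AZGP1 level stood 336-fold above the floor. J82 was 2.12 ± 0.26 (log2) below TCCSUP, adjusted p = 1.64e-05 by the edgeR test.

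CRYBA4, a crystallin of the eye lens, was far higher in 1 line, with 395 and 478 counts in treated 253J and 8 to 18 in the other treated libraries. The difference between 253J and RT112 was 5.21 ± 0.42 (log2), adjusted p = 1.27e-06 by the edgeR test. RTBDN, a riboflavin-binding protein of the retina, was highest in RT112, with 164 and 181 counts, and lowest in 253J, with 29 and 41. PCK1, the enzyme that commits carbon to gluconeogenesis, held 50 to 85 counts in each treated library of 253J, RT112 and TCCSUP and 8 and 12 in J82. NAT2, the N-acetyltransferase of drug metabolism, held 139 and 92 counts in TCCSUP and 0 and 13 in RT112. RPL3L, a ribosomal protein of striated muscle, held 119 and 180 counts in 253J and 152 and 113 in RT112, but 4 to 13 in J82 and TCCSUP. The TCCSUP control libraries held 3 and 3 RPL3L counts. ALOX15B, a lipoxygenase, held 53 and 52 counts in 253J and 6 to 18 elsewhere.

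Among the remaining protein-coding genes, TBX4, a T-box factor of limb and lung development, had no control count, 130 and 71 counts in treated TCCSUP and 12 and 13 in 253J. EGR3 held 2 or 3 counts in 5 control libraries and 6 to 55 in the treated ones, and was not called between lines. YPEL4 and HMCN2, a hemicentin of the extracellular matrix, were among the most even of the better measured genes, with 21 to 72 and 42 to 88 counts per treated library and differences of 1.12 ± 0.53 and 0.79 ± 0.48 (log2) between the highest and lowest line. PPP1R16B, a regulatory subunit of protein phosphatase 1, held 167 and 192 counts in TCCSUP, 79 and 97 in J82, 60 and 59 in RT112 and 7 and 6 in 253J. C8orf34 was highest in J82, with 45 and 48 counts, and ZNF722P in TCCSUP, with 50 and 47. ASB4, FAM3D, SMIM24, BTBD17, RAB44, MUC22 and CCDC92B were not called between lines and held 0 to 40 counts per treated library.

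**Figure D3:**
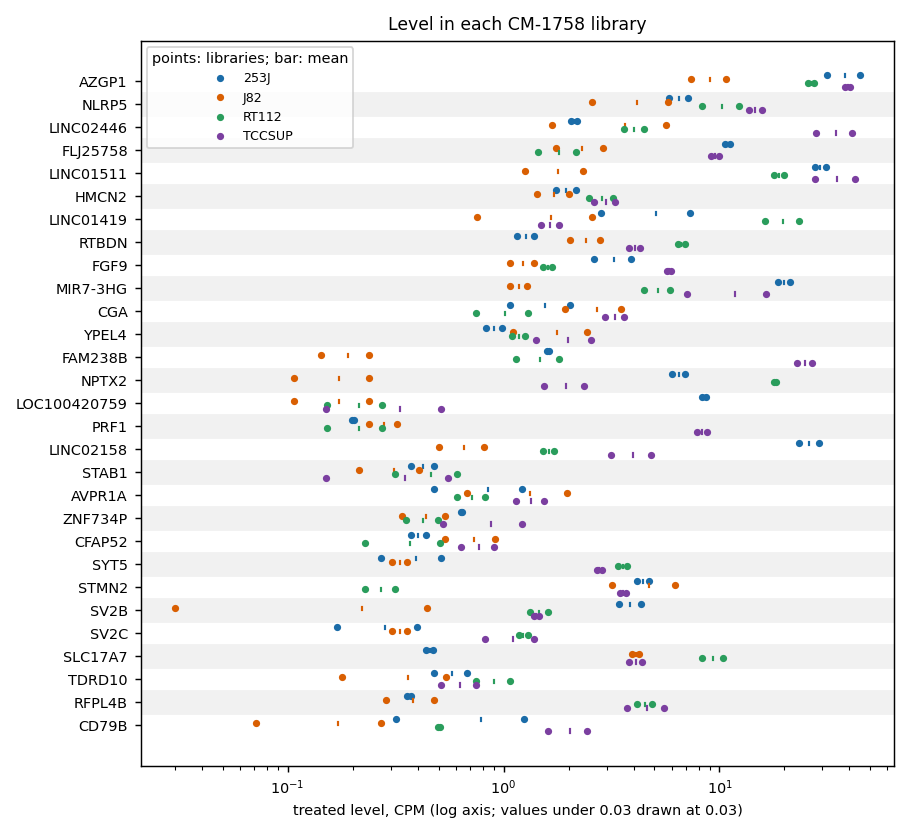
Treated level in CPM (x axis, log scale) of genes chosen by the naming rule (y axis), with 1 point per CM-1758 library, colours for the 4 lines and a short bar at the mean of the 2 libraries. Values under 0.03 CPM are drawn at 0.03. NPTX2, FAM238B and PRF1 span more than 5 log2 units between lines, whereas the points of STAB1 and HMCN2 overlap.

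The 24 lncRNAs included several of the best measured genes. LINC01511 held 782 and 819 counts in treated 253J, 455 and 524 in RT112, 1139 and 705 in TCCSUP and 35 and 69 in J82, and TCCSUP and J82 differed by 4.29 ± 0.35 (log2), adjusted p = 1.3e-06. LINC02446 was highest in TCCSUP, with 1101 and 714 counts there and 47 to 167 in the other treated libraries. In TCCSUP it reached 39.9 RPKM, the highest level of the set. LINC01419 was highest in RT112, with 414 and 609 counts, and LINC02158 in 253J, with 728 and 691 counts against 14 and 24 in J82. FAM238B had the largest difference of all, with 716 and 583 counts in TCCSUP and 4 and 7 in J82, 6.99 ± 0.42 (log2), adjusted p = 2.35e-07. LOC100420759, a symbol not matched in RefSeq, was high in 253J alone, with 219 and 247 counts against 3 to 13 in the other treated libraries. Further lncRNAs high in 253J or TCCSUP and low in J82 were LINC01522, LINC01602, LINC02105, TSPEAR-AS2 and MAP3K20-AS1, of which LINC01602, LINC02105 and MAP3K20-AS1 were low in RT112 too. LINC01947 was also low in both J82 and RT112, and LINC00494 was highest in RT112 with 60 and 59 counts. LOC101448202 held 149 and 134 counts in TCCSUP. It overlaps COL5A1, which reached 261 CPM in a control line, and their relative strand was not determined. C1orf61, LINC01376, LINC01235, TAT-AS1, LINC01088, DACT3-AS1, LINC01606, LOC105369209, LOC105372383 and LINC01742 were not called between lines and held 0 to 56 counts per treated library. MAP3K20-AS1 and DACT3-AS1 lie opposite MAP3K20 and PRKD2, which reached 203 and 28.7 CPM in a control line.

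MIR7-3HG, the host transcript of the microRNA miR-7-3, had no control count in any library. Upon treatment it held 471 and 626 counts in 253J, 30 and 38 in J82, 150 and 117 in RT112 and 440 and 180 in TCCSUP. J82 was below each of the other 3 lines, and 253J exceeded it by 4.07 ± 0.42 (log2), adjusted p = 1.15e-05. The hairpin MIR7-3 has a row of its own, which held no control count and 0 to 5 counts in treated libraries. The mature sequence is shown because it is the known product of this host gene, with its seed, bases 2 to 8, in capitals. Mature microRNAs were not measured in these libraries.
hsa-miR-7-5p: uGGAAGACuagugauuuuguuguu

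Near-identical copies limit 7 of the genes. FBXO36P1, FLJ25758, FRG2, GOLGA6D, SNX19P2, ZNF705D and ZNF734P have a transcript elsewhere in the genome that shares at least 95% of its bases over at least 50% of the length, and their counts are uncertain because reads could be split between the copies. FLJ25758, with 269 and 331 counts in treated 253J and 37 and 57 in RT112, is the largest of these. ZNF734P, with 9 to 31 counts in each treated library, was among the most even genes, at 1.03 ± 0.66 (log2), or 0.31 to 1.51 when 1 library was left out. EEF1AKMT4-ECE2 is a readthrough that shares its sequence with ECE2. The copy search covered the 101 genes with a GENCODE transcript, and the others may have copies that were not sought. Among further pseudogenes, ANKRD26P1 held 144 and 161 counts in 253J and 0 to 39 elsewhere, GOLGA2P6 held 95 and 154 in 253J and 7 and 10 in J82, and LOC89844, LOC127011, DSPA2D, RPS12P29, LOC100130618, KRT18P55 and LOC100132781 held 2 to 101 per treated library. The unmatched symbols LOC149935, LOC105369980, LOC101927870 and LOC100130238 held 4 to 152.

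Levels differed between the treated lines in a majority of the set, though in a smaller share than among all genes tested. With an F test over the 4 treated groups, 65 of the 117 genes (55.6%) were called at an adjusted p under 0.01, against 73.1% of the 21297 genes tested. At an unadjusted p under 0.05 the same F test called 78, and the share of all genes tested at that limit was not counted. The difference between the highest and lowest line had a median of 2.74 (log2) and ran from 0.56 to 6.99. These genes have low counts, and the choice of genes required at least 10 counts in every line, so the 2 shares are given side by side without a test.

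J82 was the lowest line for 62 of the 117 genes, against 23 for RT112, 19 for 253J and 13 for TCCSUP, while the highest line was TCCSUP for 48, 253J for 35, RT112 for 30 and J82 for 4. The median treated level over the genes was 0.346 CPM in J82, 0.715 in RT112, 0.845 in 253J and 1.10 in TCCSUP, and the spread of this median between the 2 libraries of a line was at most 0.136 CPM (SD, n = 2). At a log2 difference past 2 and an adjusted p under 0.01, treated J82 was lower than 253J in 37 genes (31.6% of the set, 8.59% of all genes tested), lower than TCCSUP in 38 (32.5% against 9.84%) and lower than RT112 in 18 (15.4% against 9.48%). In the other direction, J82 was higher than 253J in 2 genes (8.69% of all genes tested), than RT112 in 3 (7.31%) and than TCCSUP in 2 (4.47%). J82 was thus higher than at least 1 other line in 5 genes, PPP1R16B, SLC17A7, STMN2, C8orf34 and DSPA2D. In all, 9 genes were lower in J82 than in all 3 other lines. For these combined counts the share over all genes tested was not counted, so nothing about the set is read from them. Among the other lines, RT112 was below 253J in 21 genes (17.9% against 8.41%) and above it in 9 (7.69% against 10.7%), TCCSUP was above 253J in 14 (12% against 11%) and below it in 8 (6.84% against 5.35%), and TCCSUP was above RT112 in 18 (15.4% against 8.97%) and below it in 3 (2.56% against 6.02%). The 9 genes lower in J82 than everywhere else, named after their values were seen, were NPTX2, PCK1, MIR7-3HG, GOLGA6D, GOLGA2P6, FAM238B, LOC100130238, LINC01511 and LINC01522.

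Several measured facts go with the low J82 levels. J82 had the fewest silent genes on and held the lowest treated count sum for 58 of the 117 genes. Both restate the treated counts that chose the genes and are no separate support. The J82 libraries also differed most from each other, with replicate 3 above replicate 1 in 83 of the 117 genes and 35 genes more than 2-fold apart, against 17 to 23 genes in the other lines. With library size alone in place of TMM scaling, the median shift over all tested genes was -0.233 (log2) for J82 minus 253J. It was 0.238 for RT112 minus J82 and 0.233 for TCCSUP minus J82. J82 thus lay lower against the other lines without TMM scaling than with it. The part of the dose, the replicate difference and the scaling in the low levels was not tested.

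**Figure D4:**
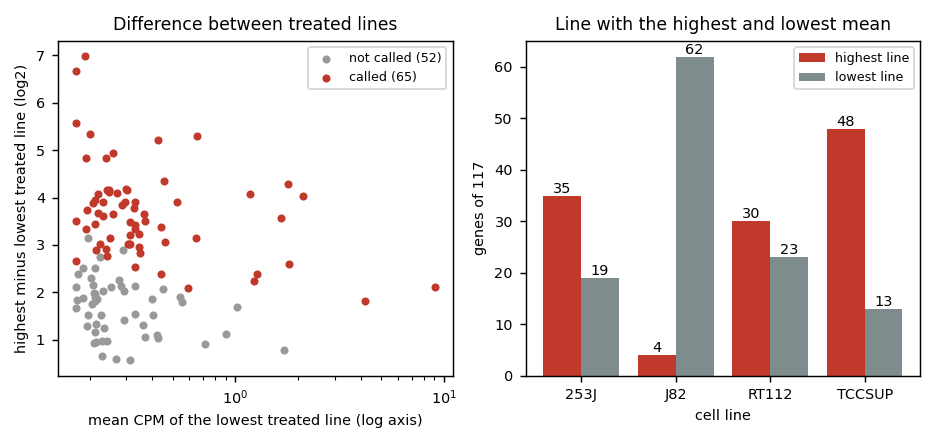
Left, difference between the highest and lowest treated line (log2, y axis) against the mean CPM of the lowest line (log axis) for the 117 genes, with the 65 genes called by the F test in red and the 52 others in grey. Right, the number of genes for which each line was highest (red) or lowest (grey); J82 is lowest for 62 and highest for 4.

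In the contrast with control, which chose the genes, 91 of the 117 were called higher in 253J (9.43% of all genes tested), 71 in J82 (8.81%), 90 in RT112 (11.4%), 94 in TCCSUP (14.2%) and 52 in all 4 lines (1.58%). None was called lower, a call made for 3.5%, 1.24%, 1.39% and 3.31% of all genes tested in 253J, J82, RT112 and TCCSUP. Nothing is read from these counts.

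Lists of tissue genes, some of whose entries (such as AZGP1, PAK3 and TMEM59L) were picked with earlier results known, place the set among other genes of the same kind. Of 78 neuronal and synaptic genes, 73 were tested, and 48 rose in RT112, 38 in TCCSUP, 33 in 253J and 30 in J82, while 3 fell in 253J and 0 in the other lines. Of these 78 genes, 23 were silent in all controls and 20 of the 23 were on in at least 1 treated line, 6 of them as members of the set, SYT5, STMN2, SV2B, SV2C and SLC17A7 among them. Of all 13319 genes silent in control, 11300 were on in no treated line.

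Of 61 germ-line genes, 37 were tested and 9, 7, 17 and 21 rose in 253J, J82, RT112 and TCCSUP, with 1 lower in TCCSUP. Here 31 of the 61 genes were silent in control and 11 of these 31 were on in at least 1 treated line, with TDRD10 and RFPL4B in the set. The background is again the 13319 silent genes, of which 11300 were on in no treated line. Blood cell genes, 35 of 56 tested, rose in 14, 7, 14 and 15 cases, and fell in 1 each in J82 and TCCSUP, and CD79B and PRF1 were members. Muscle genes rose in 8, 8, 9 and 6 of 32 tested, with 1 lower in RT112, photoreceptor genes in 7, 4, 4 and 6 of 23, with 1 lower in TCCSUP, and liver genes in 3, 4, 4 and 4 of 15, with 2 lower in 253J and 1 in TCCSUP. No muscle or photoreceptor gene and only AZGP1 of the liver genes was in the set. These counts are descriptions, read beside the shares of all tested genes given above.

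Genes next to the set in RefSeq order were not used by the choice. Of 124 tested neighbours, the nearest on each side of 111 placed genes, 33 (26.6%) were higher upon treatment in TCCSUP, 26 (21.0%) in RT112, 22 (17.7%) in 253J and 17 (13.7%) in J82, against 14.2%, 11.4%, 9.43% and 8.81% of all genes tested. In all 4 lines 6 neighbours were higher, 4.84% against 1.58%, and 75 (60.5%) were higher in no line, against 74.8%. The 6, named after their values were seen, were HAP1 beside GAST, LGI4 and FXYD7 on either side of FXYD1, DACT3 beside DACT3-AS1, DNAAF3 beside SYT5, and NKILA beside LINC01742. Neighbours are not independent of each other or of a gene they overlap, and no test was made. Of the 111 genes, 34 overlap another gene, and 11 overlap one above 1 CPM in a control line, where reads of the partner could be counted on either gene.

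The median CpG content of the promoters lay between that of expressed genes and that of genes that stayed silent. For the 66 genes with a promoter in the RefSeq table, the median ratio of observed to expected CpG was 0.385, against 0.798 for 14270 tested genes, 0.580 for all 27305 promoters, 0.334 for genes silent in control and on in 1 to 3 treated lines and 0.216 for genes silent in control and on in no treated line. A ratio of at least 0.6 was found in 25 of the 66 (37.9%), against 72.7%, 49.0%, 26.3% and 13.5%. For 183 promoters of genes outside the set that were called higher in all 4 lines, the median was 0.694, with 56.3% at 0.6 or above. The 6 promoters printed above run from 0.0501 for AZGP1 to 0.636 for SLC17A7, and the set reached 1.01 for EPHA8.

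**Figure D5:**
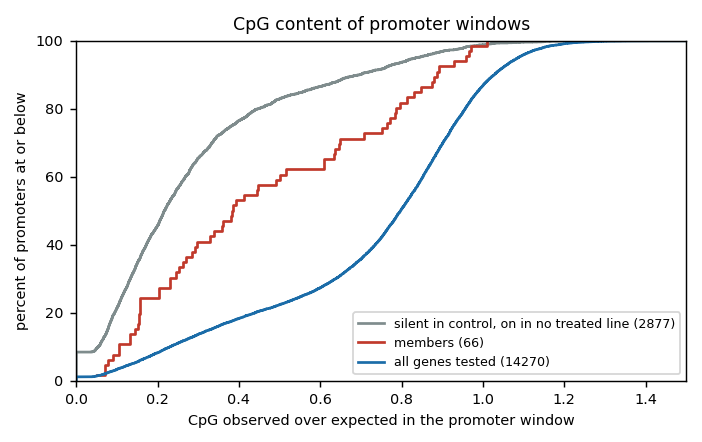
Percent of promoters (y axis) at or below a given ratio of observed to expected CpG (x axis) in the window from 250 bases before to 50 after the start, for 66 of the 117 genes, 14270 tested genes and 2877 genes silent in control and on in no treated line. The curve of the 66 genes lies between the other 2, with medians of 0.385, 0.798 and 0.216.

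The short motifs were counted in the 66 promoters beside all promoters, with no test. TATAAA was found in 8 (12.1% against 11.95%), GGGCGG in 29 (43.9% against 44.6%), CCAAT in 29 (43.9% against 35.7%), CACGTG in 6 (9.09% against 7.43%) and TGACGTCA in 2 (3.03% against 1.98%), counted on both strands. Among the printed promoters, GAST holds TATAAA on the reverse strand with its first base at -33 and GGGCGG at -145 and -72, MIR7-3HG holds CCAAT on the reverse strand at -223 and -61, NLRP5 holds CCAAT at -98 and CACGTG at -47, and SLC17A7 holds GGGCGG 3 times. A match to these letters is a description of the sequence and not of binding.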

How the data were processed

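RNA-seq libraries of 4 BC cell lines, 2 per line and treatment, were analysed from the 1 table of raw counts that the authors deposited, which gives unnormalized read totals by gene symbol. According to the study's methods and the submitters' processing notes, stranded total RNA libraries were depleted of ribosomal RNA and sequenced by a service provider, HISAT2, StringTie and the build GRCh37 were used, and DESeq2 served for differential analysis. The roles of these tools, the counting step, its strand setting and the annotation are not given in the sources used here. All columns were matched to samples by their labels.

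The genes were taken by fixed count limits, leaving out symbols starting with 15 family prefixes. The members, the gene lists and the tests were chosen with earlier results of these data known. All 21297 genes that passed filterByExpr over the 8 groups, the 117 included, entered a quasi-likelihood fit (edgeR 4.0.16, R 4.3.3) with TMM scaling (biological coefficient of variation 0.153), with Benjamini-Hochberg adjustment over all genes. The treated lines were compared with an F test (adjusted p under 0.01) and in pairs (also a log2 difference past 2). SEs are the log2 difference divided by the square root of F. CPM used TMM library sizes, and RPKM used exon lengths of GENCODE v29. Fold values over the floor are the mean treated CPM divided by the CPM of 3 counts in each control library. The floor allows for counting error in control, while the error of the treated counts is not covered. The study's methods call the 2 libraries of a group independent biological replicates. Total counts of 22506431 to 32537104 per library put 1 count at about 0.04 CPM or less.

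Genes named are the 12 with the highest level in their lowest line, the 5 with the largest and 5 with the smallest difference between lines (the latter among the 50 best measured), every listed gene in the set, and those next to the limits. Others were picked once their values had been seen, and 2 genes of the set are counted but not reported here by name. Neighbours and promoters came from RefSeq (GRCh38.p14), and 66 genes had a promoter window. Near-identical copies were sought among GENCODE transcripts with BLAST 2.17.0, in place of the protein comparison that had been planned. Alternatives were other count limits and scalings, DESeq2 1.42.0, stricter filters, thinned counts, the replicate number as a block, and leaving out each library. The fit was tested on simulated counts.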

Additional observations from a re-analysis of the deposited data

How the results depend on the processing

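The number of genes depended on the limits. It was 54, 60, 190 and 393 with at most 0, 1, 5 and 10 counts in each control library. With at least 20 and 50 counts in each treated line it was 35 and 12, and with control and CM-1758 exchanged it was 0. It was 55 to 136 when 1 library was left out, lowest without J82 CM-1758 replicate 3 and 77 without replicate 1. With the limits kept, leaving out a treated library can only lower this number and leaving out a control library can only raise it. A filter of at least 10 counts in each treated library removes most of the set. Of the genes it kept, 18 were called between lines. Lower in J82 than in 253J, RT112 and TCCSUP were 6, 5 and 11, with 2 lower than in all 3, and 1 was higher in J82. These counts come from far fewer genes and are given without shares. Their fall against the main counts therefore does not show that a smaller part of the genes was called. Leaving out 1 library gave 54 to 65 genes called between lines, 27 to 37, 13 to 19 and 26 to 40 lower in J82, 7 to 9 lower than in all 3 lines and 3 to 6 higher, the 3 without J82 CM-1758 replicate 3. The group left with 1 library was assumed to vary like the others. The median treated level was 0.806 CPM in RT112 and 1.24 in TCCSUP with library size alone, 0.826 and 1.27 without small noncoding RNA genes, and 0.746 to 0.938 in 253J, 0.324 to 0.413 in J82, 0.643 to 0.736 in RT112 and 1.08 to 1.13 in TCCSUP when 1 library was left out.

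The main fit did not pair samples by replicate number. Correlations of the replicate deviations between control and treated libraries were 0.0529, 0.218, 0.0427 and 0.0173 in 253J, J82, RT112 and TCCSUP. Control and treated libraries shared 1 number in 253J and 2 in the others. With no reference value, these correlations cannot decide whether equal numbers mark paired cultures. With the replicate number as a block, 52 genes were called between lines, 3 were higher in J82, and the STAB1 difference was -0.0247 (log2), a change of sign within its error. The promoter CpG ratio of the set was 0.195 lower than that of all promoters (-0.195), -0.413 against tested genes and 0.17 above genes silent in control and on in no treated line, a comparison chosen after seeing the data. Counts, shares and medians were judged by size. Differences of single genes between lines were judged only by sign and by the call at adjusted p under 0.01, so their size could change. On these terms 403 values over all results and settings were kept, 24 moved and 2 changed sign, which are the STAB1 and promoter values given here. The cause of these changes was not tested. With 2 libraries per group and 10 to 19 counts in the lowest line of 82 genes, depth limits the order of lines for most of the set.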
